A study of Mus musculus with 12 samples.

Results

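Genes of NAD and niacin metabolism were described in mouse spinal cord white matter after demyelination. They were 10 of 46078 gene identifiers in the count table that mapped to the symbols Nampt, Naprt, Nadsyn1, Qprt, Nmnat1, Nmnat2, Nmnat3, Cd38, Bst1 and Sarm1. The choice was made by function, with earlier results of these data known. Of the 10, 9 passed the filter on low counts and were tested, and Qprt did not pass.

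RNA sequencing libraries were made from ventrolateral white matter dissected from the spinal cord by laser capture, a method that excises tissue seen under a microscope. The 12 libraries came from C57Bl6 mice and formed 4 groups of 3, a naïve and an injured group for young and likewise for middle-aged mice. Young mice were 6 weeks and middle-aged mice 8 months old. Injured mice had received the demyelinating lipid lysolecithin 72 h earlier, and naïve mice had no lesion. Each library pooled RNA from 5 mice, so a replicate is a pool. No library came from mice given a vehicle injection, so the effects of lysolecithin and of the injection itself cannot be told apart. The labels list the pools as separate samples, and p-values measure the spread between them.

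NAD is the electron carrier of energy metabolism and also a substrate that several enzyme families consume. Cells make it from nicotinamide through NAMPT, from nicotinic acid (niacin) through NAPRT, or from tryptophan through quinolinic acid and QPRT. The NMNAT enzymes complete the synthesis, whereas CD38, its relative BST1 and the axonal enzyme SARM1 degrade NAD. In axons, NMNAT2 preserves and SARM1 destroys the fibre, and CD38 and BST1 are surface enzymes known from leukocytes.

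The pools held between 9834447 and 12807437 counts on genes. Levels are given in TMM CPM, that is, counts scaled to library size and, by edgeR's TMM method, to library composition, and levels of different genes are compared only per kb of annotated exon. Replicate 2 of the middle-aged naïve pools stood apart. Its unscaled log2 counts correlated with those of the other pools of that group at Pearson's r of 0.908 and 0.919, against 0.951 between those other pools and 0.959 or more within each of the other groups. Each correlation was over the genes above a minimum count in the pools compared. Results that rest on this pool are therefore also given without it, except for correlations across pools. Of the marker lists used to check the tissue, the summed level of 6 oligodendrocyte genes was the highest in naïve white matter. It was 86699 to 101953 CPM in young naïve and 53009 to 60301 CPM in middle-aged naïve pools. After injury it was 18251 to 20256 CPM (young) and 7930 to 12447 CPM (middle-aged), so the ages did not overlap in either state. Because whole tissue was sequenced, fewer cells of a type and less RNA per cell cannot be told apart. Amplified reads are not independent molecules, so counting intervals cover counting error only.

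After lysolecithin, transcripts of the rate-limiting salvage enzyme Nampt and of both ectoenzymes Cd38 and Bst1 rose in white matter of both ages, and Sarm1 fell in both. Nmnat2 fell in young mice. In young mice 3 of the 9 genes tested rose and 2 fell at an adjusted p under 0.05 in edgeR's quasi-likelihood test, while 28.3% of all 15866 genes tested rose and 26.3% fell. In middle-aged mice 3 rose (Nampt, Cd38 and Bst1) and 1 fell (Sarm1), with 29.2% of all genes higher and 29.3% lower. Injury moved a large share of the transcriptome, and the counts among these enzymes are to be read against it. The median log2 fold change over the 9 genes was 0.48 (young) and -0.08 (middle-aged), against 0.0005 and -0.03 over all genes. The sign of the middle-aged median rests on the pool that stood apart. Without that pool the median of the 9 genes was 0.58, the value of Nmnat1, and the median over all genes is not given for that fit.

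**Figure D1:**
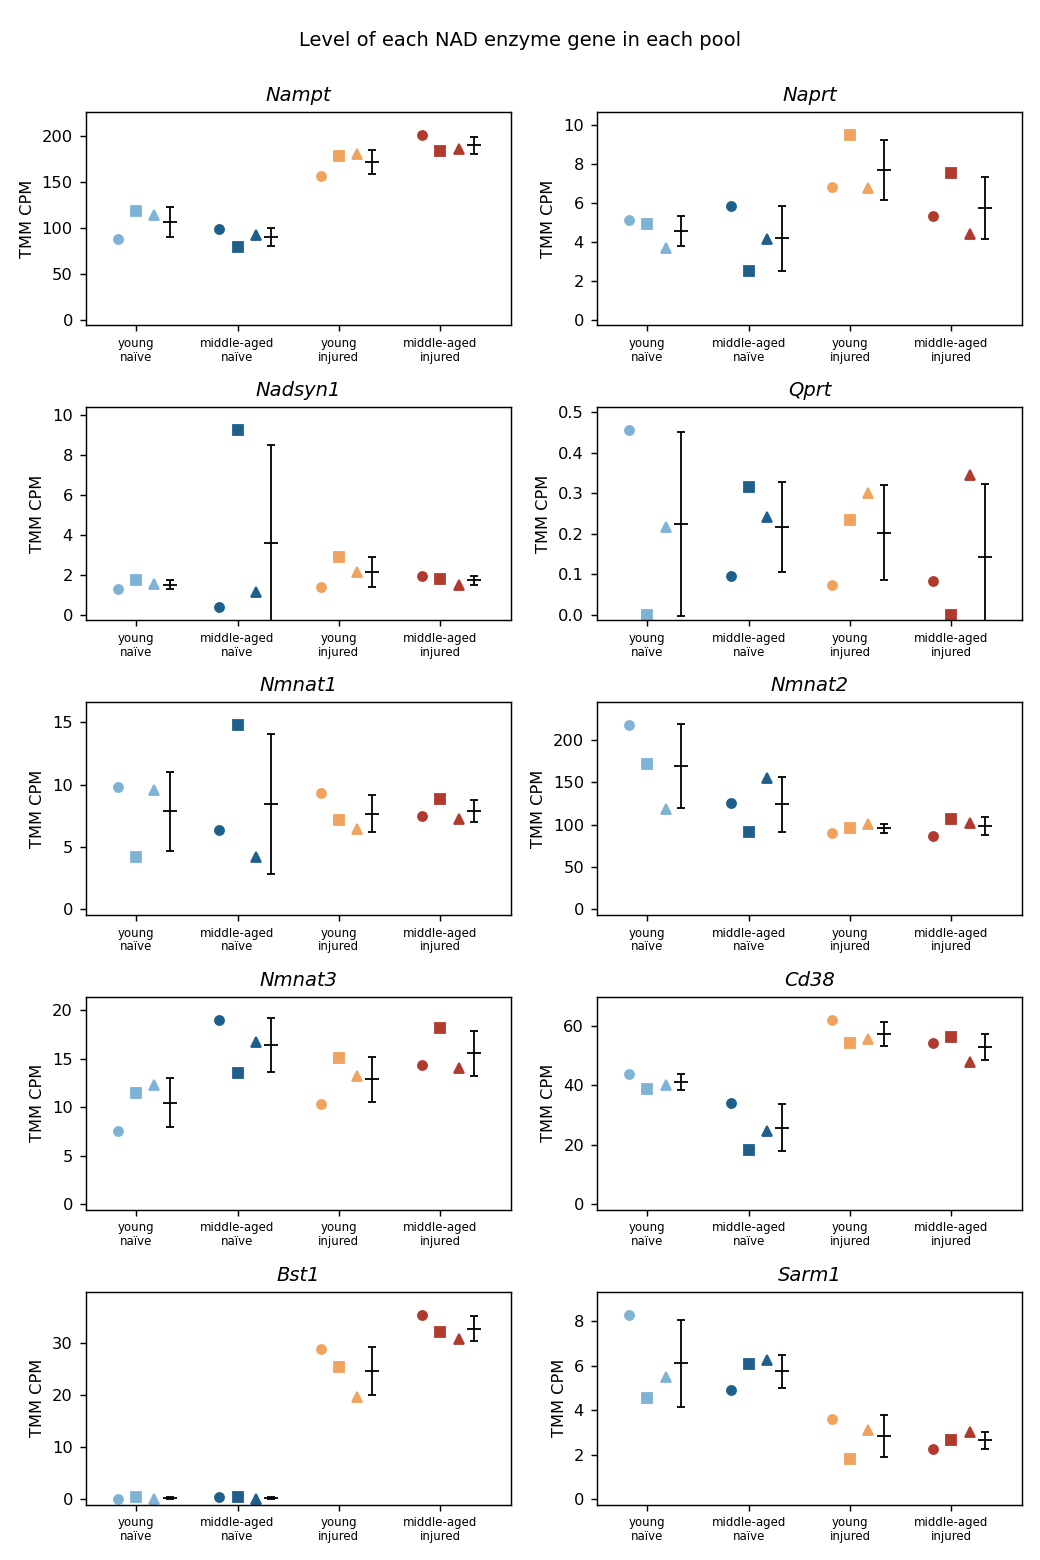
TMM CPM of each of the 10 genes (vertical axes, starting near 0 and scaled to each gene) in the 3 pools of each group. Circles, squares and triangles are replicates 1, 2 and 3, and the black bars are the mean and SD, cut off below 0; Bst1 lies near 0 in both naïve groups and at 19.7 CPM or more in every injured pool.

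**Figure D2:**
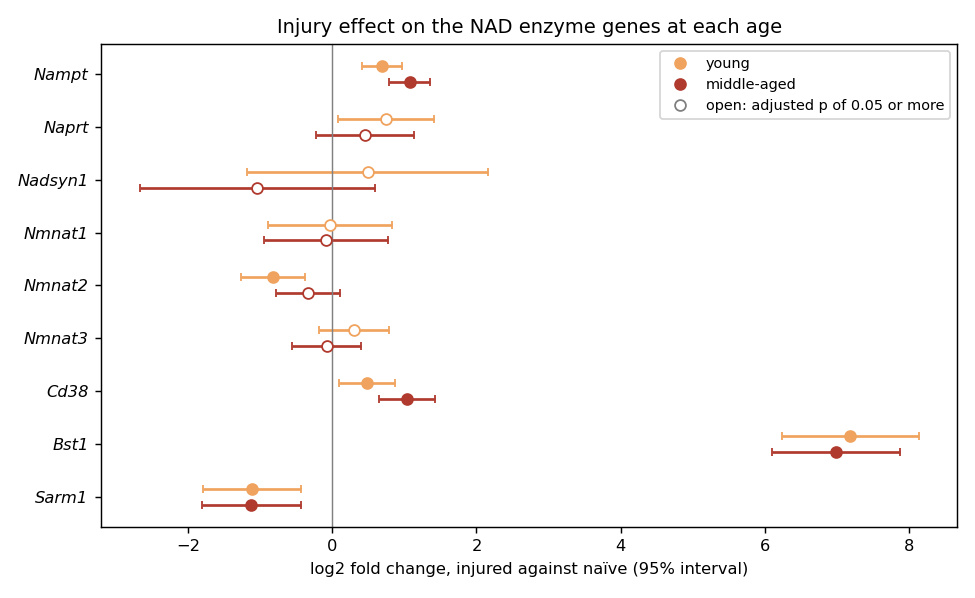
Log2 fold change with injury in young and middle-aged mice for the 9 genes tested, with 95% intervals derived from edgeR's F statistic, where filled points have an adjusted p under 0.05. Bst1 lies near 7 at both ages, and the intervals of Nmnat1 and Nadsyn1 cross 0 at both.

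Nampt makes nicotinamide mononucleotide from nicotinamide and sets the pace of NAD salvage. The gene lies on the plus strand of chromosome 12 of GRCm38 from 32819545 to 32853349 and is annotated as protein coding. Its level was 87.6, 119 and 114 CPM in the young naïve pools, and 98.9, 79.3 and 92.1 CPM in the middle-aged naïve pools. It was 156, 178 and 181 CPM in the young injured pools, and 201, 183 and 186 CPM in the middle-aged injured pools. All 6 injured pools exceeded all 6 naïve pools. The log2 fold change with injury was 0.69 in young mice (SE 0.13, adjusted p = 4.75e-04, edgeR), a rise of 1.61 times, and 1.08 in middle-aged mice (SE 0.13, adjusted p = 7.70e-06), a rise of 2.11 times. Without the middle-aged naïve pool that stood apart, the middle-aged value was 0.997 (adjusted p = 2.03e-05). The change was larger in middle-aged mice by 0.39 on the log2 scale (SE 0.19, 95% interval -0.01 to 0.79), which did not pass the adjustment over all genes (adjusted p = 0.521, edgeR). Without the pool that stood apart this difference was 0.31 (adjusted p = 0.500, edgeR).

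Because Nampt rose and Sarm1 fell at both ages, and because both have a RefSeq promoter free of annotated exons, the 250 bases before their start sites are shown for comparison of base composition. They are from RefSeq on GRCm38.p6, 5′ to 3′ along the gene, with capitals marking matches to GGGCGG, the core of the GC box bound by Sp1-type factors, on either strand. The Nampt sequence is chr12:32820085-32820334 on the plus strand, within the span of the annotated gene but outside its exons, and the Sarm1 sequence chr11:78497755-78498004 on the minus strand.
Nampt: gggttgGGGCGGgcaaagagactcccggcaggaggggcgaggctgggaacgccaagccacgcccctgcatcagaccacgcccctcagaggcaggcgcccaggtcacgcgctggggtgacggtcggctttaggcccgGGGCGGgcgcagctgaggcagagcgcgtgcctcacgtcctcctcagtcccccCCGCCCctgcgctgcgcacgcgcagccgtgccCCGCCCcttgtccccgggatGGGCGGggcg
Sarm1: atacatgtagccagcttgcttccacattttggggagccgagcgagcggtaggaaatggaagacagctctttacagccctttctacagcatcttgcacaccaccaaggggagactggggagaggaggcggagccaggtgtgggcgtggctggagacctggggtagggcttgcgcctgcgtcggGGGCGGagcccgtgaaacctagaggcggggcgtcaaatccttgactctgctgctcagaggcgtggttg
The Nampt stretch is 75.6% G or C, with 27 CpG pairs and 5 GC boxes. The Sarm1 stretch is 60.8% G or C, with 13 CpG pairs and 1 GC box. Of the 32851 promoter stretches of this length in the table, 32.74% hold at least 1 GC box, and 91.44% hold fewer CpG pairs than that of Nampt. Further motifs were searched on both strands and had no match in either stretch. These were the TATA box TATAAA, found in 12.37% of all stretches, the PU.1-type motif GAGGAA (23.25%), the AP-1 motif TGANTCA (6.749%) and the E-box CACGTG (6.021%). A match describes the sequence and is not evidence of binding.

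Naprt opens the route from niacin itself, by making nicotinic acid mononucleotide. Its counts were 34 to 56 in young naïve and 90 to 122 in young injured pools. In CPM it was 5.10, 4.90 and 3.66 in the young naïve pools and 6.83, 9.46 and 6.78 in the young injured pools. The middle-aged naïve pools had 5.86, 2.52 and 4.16 CPM and the middle-aged injured pools 5.31, 7.51 and 4.40 CPM. The young groups did not overlap, and the middle-aged groups did. The log2 fold change of Naprt was 0.75 in young mice (SE 0.31, adjusted p = 0.0543, edgeR) and 0.45 in middle-aged mice (SE 0.32, adjusted p = 0.232), so neither passed the threshold. The young value has an adjusted p of 0.0418 in DESeq2, of 0.0220 when the middle-aged naïve pool that stood apart is left out, and of 0.0345 without middle-aged naïve replicate 1. Per kb of exon, the level of Nampt was 11.2 ± 3.22 (SD, n = 3) times that of Naprt in young naïve mice, 10.9 ± 3.43 in middle-aged naïve mice, and it was 10.6 ± 1.82 in the young injured and 16.1 ± 4.30 in the middle-aged injured group. The exact permutation test (2-sided) of this ratio gave p = 0.2 for injury in middle-aged mice and p = 0.9 in young mice, where 3 pools against 3 cannot give less than 0.1. The middle-aged naïve pool that stood apart had a ratio of 14.6. The other middle-aged naïve pools had 7.83 and 10.3, below the injured pools at 11.3 to 19.6. Of the 2344 exonic bases of Naprt, 277 also belong to exons of Eef1d on the same strand, and how reads there were assigned is not given in the sources used here.

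Nadsyn1, which turns the niacin-derived intermediate into NAD, and Qprt, which feeds tryptophan-derived quinolinic acid into the same route, were scarce. Nadsyn1 had 14, 19 and 14 counts in the young naïve pools, 4, 88 and 14 in the middle-aged naïve pools, 19, 37 and 28 in the young injured pools and 23, 22 and 17 in the middle-aged injured pools. One pool, the middle-aged naïve replicate 2, held 88 of the 106 middle-aged naïve counts. The log2 fold change with injury was 0.50 in young mice (SE 0.78, adjusted p = 0.618, edgeR) and -1.04 in middle-aged mice (SE 0.76, adjusted p = 0.257). Without that pool the middle-aged value was 1.15 (adjusted p = 0.0661), so its direction rests on 1 library. Without middle-aged naïve replicate 1 it was -1.57 (adjusted p = 0.0439). Qprt had 0 to 5 counts in every pool, with 7 counts over the 3 young naïve pools, 7 over the middle-aged naïve pools, and after injury 8 (young) and 5 (middle-aged). The pool with the most, young naïve replicate 1, had 0.428 CPM of its library total (95% Clopper-Pearson interval 0.139 to 0.998), and a difference between groups was not detectable at this depth. Exact permutation tests (2-sided) of log2 CPM gave p = 0.9 (young) and p = 0.6 (middle-aged) for injury.

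The NMNAT enzymes join the mononucleotide to an adenylate to form NAD, NMNAT1 in the nucleus, NMNAT2 at the Golgi and in axons, and NMNAT3 in mitochondria. Nmnat2 was by far the most abundant per kb of exon, with 29.3 ± 8.56 (SD, n = 3) CPM per kb in young naïve mice, against 2.59 ± 1.05 for Nmnat1 and 2.09 ± 0.50 for Nmnat3. Its pools had 217, 171 and 119 CPM in young naïve mice and 125, 91.2 and 155 CPM in middle-aged naïve mice. After injury they had 90.0, 95.7 and 101 CPM in the young pools and 87.0, 107 and 102 CPM in the middle-aged pools. The young injured pools lay below all young naïve pools, and the middle-aged groups overlapped. Nmnat2 fell by 0.83 on the log2 scale in young mice (SE 0.21, adjusted p = 0.00362, edgeR). In middle-aged mice the log2 fold change was -0.33 (SE 0.21, adjusted p = 0.184), and it was -0.51 (adjusted p = 0.0351) without the naïve pool that stood apart, which had the lowest naïve level. The difference between the ages was 0.49 (SE 0.29, 95% interval -0.13 to 1.12, adjusted p = 0.636, edgeR), so the fall was not shown to differ between them. Without the pool that stood apart this difference was 0.32 (adjusted p = 0.660, edgeR).

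Nmnat1 ranged from 4.17 to 14.8 CPM over all pools and the 4 groups overlapped. Its log2 fold change with injury was -0.03 in young mice (95% interval -0.89 to 0.83) and -0.09 in middle-aged mice (-0.95 to 0.77), and the sign at either age changed when single pools (in middle-aged mice, the naïve pool that stood apart) were left out or when libraries were scaled by their totals alone. Nmnat3 had 7.56, 11.5 and 12.3 CPM in young naïve pools and 19.0, 13.5 and 16.7 CPM in middle-aged naïve pools. It had 10.4, 15.04 and 13.2 CPM in young injured pools and 14.4, 18.2 and 14.1 CPM in middle-aged injured pools. The young and middle-aged naïve pools of Nmnat3 did not overlap, the older being higher. Its log2 difference with age in naïve mice was 0.66 (SE 0.23, adjusted p = 0.135, edgeR), which did not pass the adjustment. As a share of the summed per-kb level of the 3 genes, Nmnat2 made up 85.4% ± 5.96 (SD, n = 3) in young naïve, 77.1% ± 8.83 in middle-aged naïve mice, and after injury 76.4% ± 1.84 (young) and 74.9% ± 1.99 (middle-aged). Every young injured pool had a lower share than every young naïve pool (exact permutation test, 2-sided, p = 0.1, the smallest possible), and in middle-aged mice the shares overlapped (p = 0.7). That overlap rests on the middle-aged naïve pool that stood apart, with a share of 67.6%. The other middle-aged naïve pools had 78.6% and 85.0%, above the injured pools at 73.8% to 77.2%.

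CD38 and BST1 (CD157) are paralogous ectoenzymes that cleave NAD and can form cyclic ADP-ribose, a calcium-releasing messenger. Their genes are neighbours on the plus strand of chromosome 5 of GRCm38, Bst1 from 43818885 to 43843986 and Cd38 from 43868553 to 43912375, with 24566 bases between them. Cd38 was present in naïve tissue, with 44.0, 38.8 and 40.2 CPM in the young pools and 34.1, 18.4 and 24.6 CPM in the middle-aged pools. After injury it was 62.1, 54.3 and 55.5 CPM in young and 54.2, 56.5 and 47.9 CPM in middle-aged mice. Every injured pool lay above every naïve pool, and the middle-aged naïve pools lay below the young ones. Cd38 rose in young mice by 0.48 on the log2 scale (SE 0.18, adjusted p = 0.0334, edgeR) and by 1.04 in middle-aged mice (SE 0.18, adjusted p = 2.04e-04). The young call was not kept under every setting: with upper quartile scaling its adjusted p was 0.0628, and it was between 0.0534 and 0.113 when any of 5 of the 6 young pools (all but naïve replicate 1) was left out. Without the middle-aged naïve pool that stood apart, the middle-aged value was 0.86 (adjusted p = 2.28e-04). The difference between the ages was 0.56 (SE 0.25, adjusted p = 0.488), and it did not pass the adjustment. Without the pool that stood apart this difference was 0.37 (adjusted p = 0.457, edgeR).

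Bst1 was all but absent from naïve white matter. The young naïve pools had 0, 4 and 1 counts and the middle-aged naïve pools 4, 3 and 1, against a floor of 3 counts for detection, and 0 of the 11693671 counts of young naïve replicate 1 allows a level of up to 0.257 CPM. The injured pools had 394, 329 and 261 counts (young) and 428, 402 and 358 counts (middle-aged), or 24.7 ± 4.69 and 32.8 ± 2.40 CPM (SD, n = 3 pools each). The counts of the 3 pools together were 984 against 5 in young mice, a ratio of 155 (95% counting interval 66.1 to 478), and 1188 against 8 in middle-aged mice, a ratio of 133 (67.4 to 309). The fitted log2 fold changes were 7.18 (SE 0.44, adjusted p = 9.41e-09, edgeR) and 6.99 (SE 0.41, adjusted p = 5.59e-09). The young value was 8.68 without young naïve replicate 2, which held 4 of the 5 young naïve counts, and between 6.60 and 7.32 without any other single pool. The middle-aged injured pools all lay above the young injured pools, but the log2 difference of 0.41 (SE 0.26, adjusted p = 0.736) did not pass the test. Of the 3317 exonic bases of Bst1, 98 overlap Fbxl5 on the opposite strand, and the strand setting of the counting is not given in the sources used here.

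The 2 ectoenzymes thus differed in their starting level. Per kb of exon, Bst1 made up 0.466% ± 0.558 (SD, n = 3) of the summed level of Cd38 and Bst1 in young naïve and 1.22% ± 0.799 in middle-aged naïve mice. After injury it made up 33.4% ± 3.50 (young) and 42.2% ± 1.89 (middle-aged). The injured shares were between 29.3% and 35.5% in the young pools and between 40.0% and 43.5% in the middle-aged pools, without overlap, and the exact permutation test (2-sided) gave p = 0.1, the smallest that 3 pools against 3 allow.

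**Figure D3:**
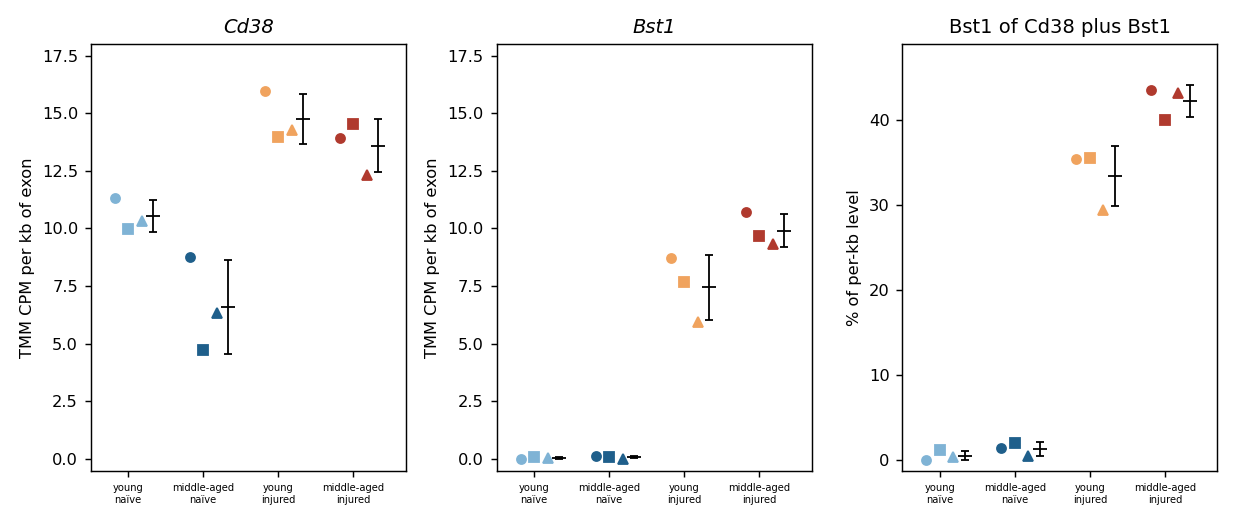
Levels of Cd38 and Bst1 per kb of exon (left and middle, same scale) and Bst1 as a percentage of both (right) in each pool. Symbols are replicates 1 to 3 and black bars the mean and SD; the Bst1 share lies at 1.97% or less in naïve pools and at 29.3% or more in injured pools.

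Markers of other cells moved in the same pools. All 8 pan-myeloid markers rose at both ages, and their summed level went from 80.6 to 114 CPM in young naïve pools to 1631 to 1670 CPM in young injured pools, and from 128 to 178 CPM to 1722 to 2264 CPM in middle-aged pools. All 4 monocyte markers also rose at both ages, from at most 1.54 CPM in any naïve pool to 73.9 to 113 CPM (young) and 163 to 206 CPM (middle-aged) in injured pools. Of 6 neutrophil markers 3 were tested and rose at both ages, with a summed level of 4.53 to 13.1 CPM in naïve and 63.6 to 88.7 CPM in injured pools. The neutrophil-defining Ly6g had 0 to 4 counts and Retnlg 0 to 1 count in any pool. The 4 B cell markers summed to at most 3.23 CPM and the 4 T or NK cell markers to at most 1.38 CPM in any pool. Microglia markers went both ways, with 3 of 6 higher and 1 lower in young mice and 2 higher and 2 lower in middle-aged mice. Their summed level was 411 to 547 CPM in young naïve and 647 to 856 CPM in middle-aged naïve pools, and 3596 to 4004 CPM and 3159 to 4380 CPM after injury. Of 6 astrocyte markers 5 fell at both ages, from 10026 to 12286 CPM over the naïve pools to 3651 to 5790 CPM over the injured pools. Of 5 endothelial markers 3 rose at both ages, and 1 fell in middle-aged mice. Of 4 oligodendrocyte progenitor markers 2 rose and 1 fell at each age. Of 4 Schwann cell markers 2 were tested, of which 2 rose in young and 1 in middle-aged mice. The part of all these cells in the levels of Nampt, Cd38 and Bst1 was not tested.

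SARM1 is the NAD-cleaving enzyme that executes the degeneration of injured axons. In GRCm38 the gene occupies bases 78472330 to 78497754 of chromosome 11, minus strand. Its pools had 8.29, 4.53 and 5.48 CPM in young naïve and 4.90, 6.09 and 6.24 CPM in middle-aged naïve mice. After injury they had 3.60, 1.78 and 3.09 CPM in young and 2.24, 2.64 and 3.02 CPM in middle-aged mice. All injured pools, with 23 to 49 counts each, lay below all naïve pools, with 50 to 91 counts. Sarm1 fell by 1.11 on the log2 scale in young mice (SE 0.32, adjusted p = 0.00830, edgeR) and by 1.12 in middle-aged mice (SE 0.32, adjusted p = 0.00768). The young call was lost when young naïve replicate 1, the pool with the highest level, was left out (-0.82, adjusted p = 0.0586). The injury effects at the ages differed by -0.01 (SE 0.44, 95% interval -0.96 to 0.93).

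Neuron and axon markers fell in the same tissue. Of 8 such markers 7 fell at each age, and their summed level was 1862 to 4581 CPM in young naïve, 2778 to 3707 CPM in middle-aged naïve pools, and after injury 749 to 986 CPM (young) and 839 to 927 CPM (middle-aged). Young naïve replicate 3 was the lowest young naïve pool both for these markers and for Nmnat2, whereas middle-aged naïve replicate 2 was the highest of its group for the markers and the lowest for Nmnat2. Their log2 fold changes ran from -2.54 (the neurofilament Nefm) to -0.02 (the synaptic vesicle gene Syt1, not called) in young mice. In middle-aged mice they ran from -2.99 (Nefm) to -0.55 (the tubulin Tubb3, not called), so that the values of Sarm1 lay within the range of the markers at both ages. The median over the markers was -2.02 (young) and -2.09 (middle-aged), a larger fall than that of Sarm1. Nmnat2 lay within the range in young mice (-0.83) and outside it in middle-aged mice (-0.33). The part of axonal RNA in the levels of Sarm1 and Nmnat2 was not tested. Per kb of exon, Nmnat2 was 27.8 ± 8.10 (SD, n = 3) times as abundant as Sarm1 in young naïve, 21.2 ± 5.77 in middle-aged naïve mice, and after injury 36.1 ± 14.5 (young) and 36.7 ± 3.38 times (middle-aged). This ratio was higher in every middle-aged injured than in every middle-aged naïve pool (exact permutation test, 2-sided, p = 0.1, the smallest possible) and overlapped between the young groups (p = 0.6).

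**Figure D4:**
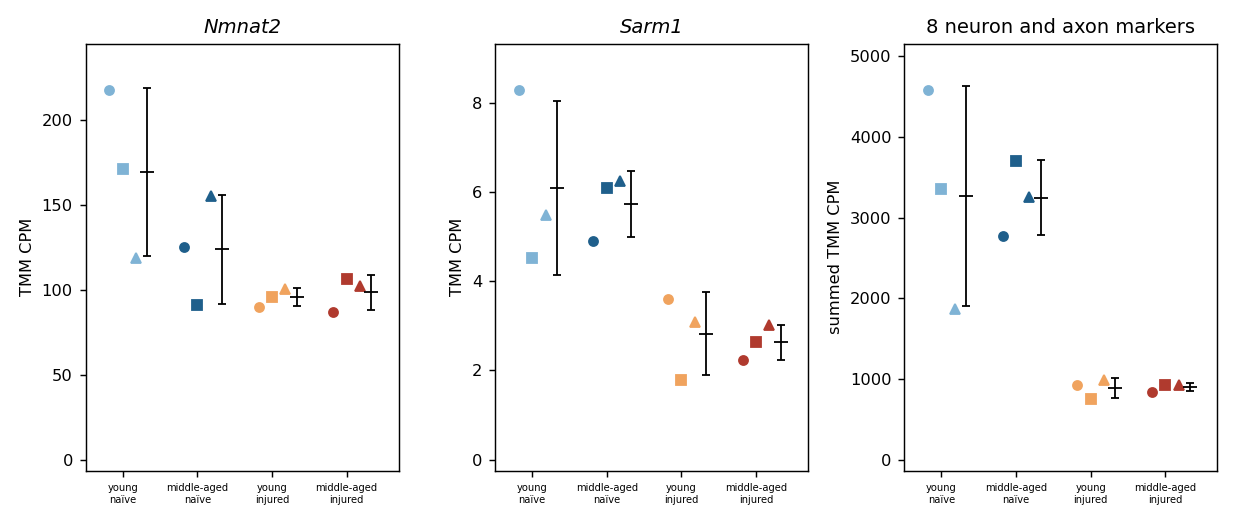
TMM CPM of Nmnat2 and Sarm1 and the summed CPM of 8 neuron and axon markers in each pool, with symbols for replicates 1 to 3 and black bars for the mean and SD. All injured pools lie below all naïve pools for Sarm1 and for the markers, and for Nmnat2 the middle-aged groups overlap.

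Differences with age did not pass the test for any of the 9 enzymes. In naïve mice 3.8% of all genes differed between the ages, but 0 of the 9 enzymes did in edgeR, with 3 at an unadjusted p under 0.05 (Cd38, Nmnat2 and Nmnat3). DESeq2 called 1, Cd38. Cd38 had a log2 difference of middle-aged minus young naïve mice of -0.67 (SE 0.18, adjusted p = 0.0566, edgeR), with no overlap between the pools. Its adjusted p was 0.0142 in DESeq2, 0.00686 without middle-aged naïve replicate 1, where the difference was -0.93, and 0.0911 without the middle-aged naïve pool that stood apart, where the difference was -0.49. That of Nmnat2 was -0.45 (adjusted p = 0.265). In injured mice 1.15% of all genes differed between the ages and 0 of the 9 enzymes did, with 0 at an unadjusted p under 0.05 in edgeR and 0 called by DESeq2. The injury effect itself differed between the ages for 0.139% of all genes and for 0 of the 9 enzymes, with 1 (Cd38) at an unadjusted p under 0.05 in edgeR and 0 called by DESeq2. Of the 6 oligodendrocyte markers, 3 were lower and 0 higher in middle-aged than young naïve mice. In injured mice 5 were lower and 0 higher. The part of oligodendrocytes in the age differences of the enzymes was not tested. The comparisons of age and of injury share naïve and injured pools, so they are not independent of each other.

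Ordered by level per kb of exon, the enzymes of young naïve white matter had the highest means for Nmnat2 at 29.3 CPM per kb, Nampt at 21.1 and Cd38 at 10.5, and the lowest for Bst1 at 0.0472. The pools of Nmnat2 (20.5 to 37.6) and Nampt (17.3 to 23.5) overlapped. In young injured white matter Nampt led at 34.0 CPM per kb, followed by Nmnat2 at 16.5, Cd38 at 14.7 and Bst1 at 7.44. The middle-aged injured order of these 4 was the same, with 37.6, 17.0, 13.6 and 9.90 CPM per kb. The pools of Nmnat2 and Cd38 overlapped on this scale in young injured mice and did not in middle-aged injured mice. Across the 12 pools, log2 CPM of Nampt correlated with that of Bst1 at r = 0.94, of Cd38 at 0.83 and of Sarm1 at -0.92, while Nadsyn1 and Nmnat1 were within ±0.15 of 0 with both Nampt and Bst1. These coefficients describe 12 pools that share injury as their main source of spread.

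The genes whose log2 CPM over the 12 pools was most like that of an enzyme are named here as a description only, from 13559 genes compared. For Nampt they were Nipsnap3b, Tmem123 and Tmed5 (Pearson's r of 0.992, 0.989 and 0.989). For Bst1 they were Plp2, B4galt1 and Lpxn (0.997, 0.995 and 0.995). For Cd38 they were Smg8, Hyal2 and Nsd2 (0.974, 0.966 and 0.964). For Sarm1 they were the ryanodine receptor Ryr2, Gm10684 and Ank1 (0.960, 0.949 and 0.948), and for Nmnat2 they were Ankrd34b, Ube3c and Atxn7l3 (0.944, 0.938 and 0.937). The most alike genes of Naprt (Sorcs2, Ppfia4 and Gm26518) and Nmnat3 (Zc3h4, Parl and Rufy1) had r between 0.841 and 0.892, and those of Nmnat1 (Cwc27, Rbbp5 and Zfp629) between 0.815 and 0.859. Nadsyn1 was most like Gm20712, Ecd and Rce1 (0.966, 0.937 and 0.932). Its log2 CPM was 3.23 in the middle-aged naïve pool that stood apart and -0.85 to 1.60 in all other pools. Its coefficients therefore rest largely on that pool, and they were not computed without it.

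Of 58 other genes of NAD metabolism, 47 passed the filter. In young mice 18 of them rose and 11 fell with injury, where 28.3% of all genes rose and 26.3% fell. In middle-aged mice 18 rose and 13 fell, where 29.2% of all genes rose and 29.3% fell. The counts of the single lists that follow are to be read against the same shares. Their median log2 fold change was 0.25 in young and 0.26 in middle-aged mice. The genes at 0 in a naïve group, Ryr1 at both ages and Kynu in middle-aged mice, lie above this median at their lower bound too, so it is the same with them at that bound.

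The poly(ADP-ribose) polymerases, which spend NAD to modify proteins, included 11 of 15 that rose and 1 that fell in young mice (28.3% and 26.3% of all genes), and 9 that rose and 1 that fell in middle-aged mice (29.2% and 29.3%). Parp10 and Parp14, which are known as interferon-responsive, changed most, with log2 fold changes of 3.99 (SE 0.43) and 3.76 (SE 0.31) in young and 2.32 (SE 0.36) and 2.51 (SE 0.29) in middle-aged mice. The young value of Parp10 was 4.74 without young naïve replicate 3. Parp9 rose by 2.74 and 2.13, with a middle-aged value of 2.77 without middle-aged naïve replicate 1, and Parp12 by 1.89 and 1.39. The DNA damage sensor Parp1 rose by 0.84 in young and 0.995 in middle-aged mice. The polymerase that fell was Parp6, by 0.83 and 0.67 on the log2 scale. Adjusted p-values of these genes were at most 0.00233 in edgeR.

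Of the sirtuins, deacylases that consume NAD, 2 of 7 fell and 0 rose at each age, while 26.3% (young) and 29.3% (middle-aged) of all genes fell. Sirt2, an abundant oligodendrocyte deacetylase, fell by 1.24 (young) and by 1.19 (middle-aged) on the log2 scale, and the mitochondrial Sirt3 fell by 1.60 and 1.43. Sirt1, Sirt4, Sirt5, Sirt6 and Sirt7 did not pass the test at either age. All 6 oligodendrocyte markers fell at both ages, and the part of oligodendrocytes in the level of Sirt2 was not tested.

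Of 11 genes of synthesis from tryptophan only 5 passed the filter. Kmo and Kynu, which make 3-hydroxykynurenine and 3-hydroxyanthranilate, rose from 0 to 4 counts in naïve pools to 8 to 35 and 9 to 27 counts in injured pools. The log2 fold change of Kmo was 5.14 (SE 1.03) in young and 3.71 (SE 0.79) in middle-aged mice. Its size rests on single naïve pools: the middle-aged value was 5.27 without middle-aged naïve replicate 1, which held 4 of the 5 middle-aged naïve counts, and 3.08 without replicate 3, and without young naïve replicate 2, which held the only count, the young naïve group is at 0. That of Kynu was 3.75 (SE 0.81) in young mice, where all 4 naïve counts were in replicate 1, so that without it the naïve group is at 0 and the size of the fold is not estimated. In middle-aged mice all 3 naïve pools were at 0, and Kynu was at least 3.40-fold higher against the floor of 3 counts in a single pool. Kyat1, a kynurenine aminotransferase, fell by 1.104 (young) and 1.59 (middle-aged) on the log2 scale. Haao, which makes quinolinic acid from the product of Kynu, did not pass the filter. Of the genes that open the route, Ido1 and Ido2 did not pass either, and Tdo2 did. Tdo2 had 5 to 24 counts in naïve and 1 to 7 counts in injured pools, with log2 fold changes of -1.28 (SE 0.68, adjusted p = 0.127, edgeR) in young and -1.74 (SE 0.71, adjusted p = 0.0470) in middle-aged mice.

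Nnmt, which methylates nicotinamide for removal, rose from 0 to 5 counts in naïve pools to 13 to 47 counts in injured pools (log2 fold changes of 3.02, SE 0.70, and 3.82, SE 0.78). Without the middle-aged naïve pool that stood apart, which held 4 of the 5 middle-aged naïve counts, the middle-aged value was 5.46. Of the 4 genes of NADP and mitochondrial NAD, the cytosolic NAD kinase Nadk rose by 0.57 in young and 0.90 in middle-aged mice and the transhydrogenase Nnt by 1.04 and 0.75, whereas the mitochondrial NAD kinase Nadk2 fell by 1.07 and 1.44 on the log2 scale. The young call of Nadk was lost without young naïve replicate 1 or 2 or young injured replicate 2 (adjusted p between 0.0547 and 0.0707, edgeR).

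Among 9 genes that remove ADP-ribose or respond to it, 5 fell and 1 rose at each age, again beside 26.3% and 29.3% of all genes that fell and 28.3% and 29.2% that rose. The cyclic ADP-ribose-sensitive calcium channel Ryr3 fell by 2.27 (young) and by 2.65 (middle-aged) on the log2 scale, and the ADP-ribosylhydrolases Macrod2 and Macrod1 also fell, Macrod2 by 1.69 and 1.84 and Macrod1 by 1.35 and 1.70. The young call of Macrod1 was lost without young naïve replicate 2 (adjusted p = 0.0576, edgeR). The one that rose was Ryr1, known as the skeletal muscle channel. Ryr1 had 0 counts in all 6 naïve pools, 74, 11 and 12 in the young injured pools and 14, 6 and 15 in the middle-aged injured pools, so that it was at least 7.43-fold higher in young and at least 3.11-fold higher in middle-aged mice against the floor of 3 counts in a single pool. The young bound rests on young injured replicate 1, the pool with 74 counts, and is 2.72-fold without it.

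Hcar2, the receptor that niacin binds on leukocytes, had 4 to 9 counts in young naïve and 15 to 32 in middle-aged naïve pools, and 302 to 407 and 495 to 597 counts after injury. On the per-kb scale its level in injured tissue, 14.4 ± 2.25 (SD, n = 3) in young and 23.3 ± 1.30 CPM per kb in middle-aged mice, was above that of Bst1 and of Naprt in the same groups. Hcar2, Aox1, Parp10 and Parp14 were the 4 of the 47 genes that were higher in middle-aged than young naïve mice, and 0 were lower. Of all genes tested, 3.8% differed between these groups in either direction. Their log2 differences were 1.86 (adjusted p = 0.0248, edgeR) for Hcar2, 1.46 (adjusted p = 0.0123) for Aox1, an oxidase of methylated nicotinamide, 2.02 (adjusted p = 0.0316) for Parp10 and 1.21 (adjusted p = 0.0492) for Parp14. Of the 4, 0 were called when only the naïve pools entered the fit or when young naïve replicate 1 was left out. Of the 47 genes, 2 were called without young naïve replicate 2, middle-aged naïve replicate 2, young injured replicate 3 or middle-aged injured replicate 1. The call of Parp14 was lost in 10 of the 12 fits that left out 1 pool (adjusted p up to 0.161), that of Parp10 in 5, that of Hcar2 in 3 and that of Aox1 in 1. The value of Parp10 was 2.76 without young naïve replicate 3. Without the middle-aged naïve pool that stood apart Hcar2 was at 1.48 (adjusted p = 0.0607, edgeR), Parp10 at 1.79 (adjusted p = 0.0609) and Parp14 at 1.27 (adjusted p = 0.0508), so these 3 calls were lost. Of the 8 pan-myeloid markers 5 were also higher and 0 lower in middle-aged naïve mice, and the part of myeloid cells in these values was not tested. In injured mice, where 1.15% of all genes differed between the ages, 0 of the 47 did (2 at an unadjusted p under 0.05 in edgeR, 0 called by DESeq2). Hcar2 was called, however, when only the injured pools entered the fit (log2 difference 0.69, adjusted p = 0.00898, edgeR). The injury effect differed between the ages for 0.139% of all genes and for 0 of the 47 (9 at an unadjusted p under 0.05 in edgeR, 0 called by DESeq2).

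**Figure D5:**
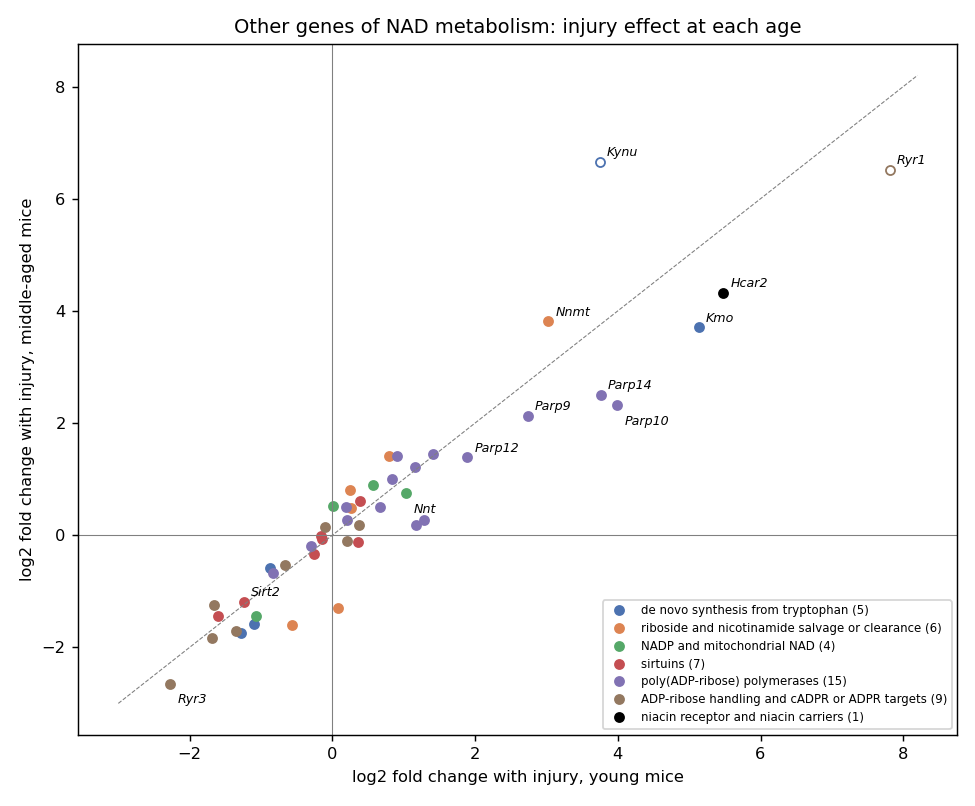
Log2 fold change with injury in young (horizontal) and middle-aged mice (vertical) for 47 other genes of NAD metabolism, coloured by list with the number tested in brackets; the dashed line marks equal change. Open symbols mark Ryr1 and Kynu. Their fitted values against naïve groups at 0 (Ryr1 at both ages, Kynu in middle-aged mice only) are no estimate of size. The young value of Kynu rests on 4 naïve counts in 1 pool. The poly(ADP-ribose) polymerases reach 3.99 in young and 2.51 in middle-aged mice.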

How the data were processed

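RNA from laser-captured white matter was amplified and sequenced in 12 pools of 5 mice, 3 pools per group. The authors checked reads with FastQC (0.11.4), aligned them with TopHat2 (2.0.10, Bowtie 1.1.2) to the mouse Ensembl GRCm38 genome and deposited raw counts per gene from featureCounts. Amplification can skew low genes. Strand setting and treatment of shared reads are not given in the sources used here.

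Counts were analysed with edgeR (4.0.16, R 4.3.3): filterByExpr, TMM scaling and the quasi-likelihood test with 1 coefficient per group over all 12 pools. P-values were adjusted by Benjamini-Hochberg over 15866 genes for each of 5 comparisons, with a threshold of 0.05. DESeq2 (1.42.0), other scalings and filters, a replicate block and leaving out each pool were alternatives; lower bounds without each injured pool were added after seeing the data. Fits were tested on simulated data. Ratios used exact permutation tests. Totals were 9834447 to 12807437, so 3 counts correspond to 0.234 to 0.305 CPM. Exon lengths came from GENCODE M21. Symbols covered 45143 of 46078 identifiers. Promoters matched 8 of the 10 genes, and those of Bst1 and Naprt were not analysed here.

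The 10 genes and all lists were chosen with earlier results of these data known. Other pathway genes named are, in each list, up to 4 with the largest mean absolute log2 fold change among those called at both ages, and Hcar2. Parp1, Parp6, Aox1, Tdo2 and genes named as not called were added after their values were seen.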

Additional observations from a re-analysis of the deposited data

How the results depend on the processing

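Of the 9 enzymes tested, 5 (young) and 4 (middle-aged) were called for injury, with ranges of 4 to 6 and 4 to 5 over leaving out each pool. For age in naïve mice 0 were called, but 1 was without the filter on low counts, in DESeq2 and with the replicate block, and 0 to 1 when single pools were left out. Of the other genes of NAD metabolism, 4 were called for age in naïve mice, 0 with only the groups compared in the fit and 0 to 4 when single pools were left out. For age in injured mice 0 were called and 1 with only the groups compared. For the difference of injury effects 0 were called, 1 without the filter and 0 to 1 when single pools were left out. The causes were not tested.

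Scaling by library totals alone moved the median log2 fold change of all genes by 0.196 (injury in young mice) and 0.109 (middle-aged mice), and split the young calls into 5380 higher and 3236 lower, against 4483 and 4177. On that scale the sign turned for Nmnat1 with injury in young (0.16) and middle-aged mice (0.035), Nmnat3 with injury in middle-aged mice (0.026), and Nmnat1 (-0.025) and Nmnat2 (-0.014) with age in injured mice. None of these was called.

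Leaving out single pools also turned signs. With injury, Nmnat1 ranged from -0.34 to 0.17 (young), and among middle-aged mice Nadsyn1 from -1.57 to 1.15, Nmnat1 from -0.42 to 0.58 and Nmnat3 from -0.21 to 0.040. With age in naïve mice, Naprt ranged from -0.43 to 0.12, Nadsyn1 from -0.96 to 1.76, Nmnat1 from -0.58 to 0.42 and Sarm1 from -0.27 to 0.20. With age in injured mice, Nmnat1 ranged from -0.059 to 0.21, Nmnat2 from -0.011 to 0.14 and Sarm1 from -0.34 to 0.12. For the difference of injury effects, Naprt ranged from -0.55 to 0.017, Nadsyn1 from -2.06 to 0.65, Nmnat1 from -0.39 to 0.61, Bst1 from -1.69 to 0.40 and Sarm1 from -0.30 to 0.19.

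The deviations of pools with the same replicate number correlated weakly (r from -0.11 to 0.15). With 3 pools per group this cannot show whether the numbers mark a pairing, and the labels name none. With the replicate block Cd38 was called for age in naïve mice (adjusted p = 0.0427, edgeR), Parp14 was not (adjusted p = 0.0617), and the sign of the difference of injury effects for Nmnat1 turned (0.016). Depth limits Qprt, Nadsyn1 and Bst1 in naïve tissue, where few counts were found.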
